A study of Mus musculus with 4 samples.

Results

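Irg1 and the enzymes of the tricarboxylic acid (TCA) cycle were followed in bone marrow derived macrophages (BMMs) given RANKL with or without dimethyl itaconate (DI). The group held 9 genes of the 34745 in the deposited table, chosen by gene symbol as Irg1, Cs, Idh2, the 4 subunit genes of succinate dehydrogenase (Sdha, Sdhb, Sdhc and Sdhd), Fh1 and Mdh2. Irg1 is the older symbol of Acod1. The BMMs came from wild type male C57BL/6 mice of 8 weeks, were kept without serum for 12 h, and then received RANKL at 100 ng/mL in complete medium together with DI (RANKL+DI) or with DMSO (RANKL+Veh) for 24 h. Every library was therefore from cells given RANKL, and unstimulated cells were not analysed here. The labels give the dose of DI as 20 mM and the study's methods as 20 μM. There were 2 libraries in each group, and nothing states whether they came from separate mice or cultures, so the spread between them may be technical. BMMs are a primary culture of macrophages that can become osteoclasts under RANKL.

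The TCA cycle runs in the mitochondrial matrix, where citrate synthase (Cs) joins acetyl-CoA to oxaloacetate, citrate is turned through cis-aconitate into isocitrate, and isocitrate dehydrogenases, succinate dehydrogenase, fumarase (Fh1) and malate dehydrogenase (Mdh2) carry the carbon back to oxaloacetate. Irg1 encodes cis-aconitate decarboxylase, which draws cis-aconitate out of the cycle and makes itaconate. Itaconate is a competitive inhibitor of succinate dehydrogenase, and Irg1 is among the genes most strongly induced by bacterial products and interferons in macrophages. DI is a cell-permeable ester related to itaconate.

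The sequences before the transcription start of 4 genes are shown so that the inducible gene Irg1 can be set beside enzymes of the cycle. They are from RefSeq (GRCm38.p6), on the strand of the gene, and cover bases 250 to 20 before the annotated start. Irg1 and Cxcl10, a chemokine gene that fell with DI, are shown beside Idh2, the one member that fell, and Cs, which feeds the cycle. Capitals mark matches on either strand to AANNGAAA (the core of sites for interferon regulatory factors), to TGACNNNGC (the core of the antioxidant response element) and to TATAAA (the TATA box). No capitals overlap between motifs.
Irg1, chr14:103046762-103046992, plus strand: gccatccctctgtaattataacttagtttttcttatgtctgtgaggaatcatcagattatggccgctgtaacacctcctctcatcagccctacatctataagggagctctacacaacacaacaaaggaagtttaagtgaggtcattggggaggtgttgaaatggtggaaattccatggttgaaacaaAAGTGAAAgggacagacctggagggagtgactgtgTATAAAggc
Cxcl10, chr5:92348909-92349139, minus strand: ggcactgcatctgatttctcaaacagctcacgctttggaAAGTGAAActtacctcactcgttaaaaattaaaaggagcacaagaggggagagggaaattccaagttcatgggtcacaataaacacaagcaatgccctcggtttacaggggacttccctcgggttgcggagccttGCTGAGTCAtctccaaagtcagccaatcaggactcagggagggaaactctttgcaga
Idh2, chr7:80115370-80115600, minus strand: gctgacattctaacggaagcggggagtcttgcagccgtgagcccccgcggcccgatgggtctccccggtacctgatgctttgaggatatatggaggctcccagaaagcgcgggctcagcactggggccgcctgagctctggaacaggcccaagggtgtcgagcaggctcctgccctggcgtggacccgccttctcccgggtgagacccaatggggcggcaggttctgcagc
Cs, chr10:128337477-128337707, plus strand: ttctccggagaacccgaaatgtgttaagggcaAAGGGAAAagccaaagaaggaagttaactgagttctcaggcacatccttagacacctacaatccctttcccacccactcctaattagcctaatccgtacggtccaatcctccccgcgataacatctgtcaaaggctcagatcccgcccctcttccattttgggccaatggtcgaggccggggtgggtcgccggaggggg

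In Irg1 the letters AAGTGAAA lay at bases 63 to 56 before the start and a TATA box at bases 28 to 23. Cxcl10 held the same 8 letters at bases 211 to 204 and an antioxidant response element core at bases 76 to 68. Idh2 held none of these motifs and Cs a single AANNGAAA match at bases 218 to 211. Of the 8 members matched in RefSeq, Sdha, Sdhb, Sdhd, Fh1 and Mdh2 also held none. TTCNNNGAA, the gamma-activated site, was searched as well and was found in none of these windows. Among all 32531 such windows, 19.9% held AANNGAAA, 9.3% TGACNNNGC, 6.52% TTCNNNGAA and 11.8% TATAAA. The Irg1 window held 1 CG dinucleotide, against a median of 5.0 over all windows and 8 to 24 in the windows of the 7 other matched members. A match of letters is a description of the sequence and shows no binding.

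For every gene a read count per library was deposited by the authors. Totals ran from 16085692 to 19403480 counts. Levels are given as CPM, counts relative to the library total on the scale of edgeR's TMM normalization, which sets aside shifts caused by a few abundant genes, and as the authors' FPKM where genes of different length are compared. Fold changes and p-values are from edgeR's quasi-likelihood test over the 12590 genes with enough counts, adjusted by the Benjamini-Hochberg method over all of them, with 0.05 as the threshold. At that threshold 14.8% of all tested genes were called, 899 higher and 969 lower with DI. Scaling by library size only moved the median over all tested genes from a log2 fold change of 0.0012 to -0.10 and the split to 548 higher and 1932 lower. The labelled cell type was clear from the level of the macrophage markers (Adgre1, Csf1r, Cd68, Itgam, Lyz2, Fcgr1 and Mertk), which all passed the filter on low counts. Their summed level was 22334 to 23177 CPM with vehicle and 28561 to 29351 CPM with DI, and 5 of 8 identifiers were called higher and 1 lower. Of 8 osteoclast markers 7 were tested, of which 5 were lower (among them Acp5 and Mmp9) and 1 was higher with DI, and Calcr had no count. Their summed level was 714 to 738 CPM with vehicle and 678 to 690 CPM with DI, most of it from Atp6v0d2, the marker that rose (427 and 417 CPM with vehicle, 509 and 509 CPM with DI). Mmp9 fell from 90.8 and 86.2 CPM to 30.5 and 26.5 CPM, Acp5 from 43.2 and 38.8 CPM to 22.1 and 20.3 CPM, and Ocstamp from 5.42 and 5.52 CPM to 1.11 and 0.799 CPM. Markers of B cells, T and NK cells, mast cells and basophils, and erythroid cells each summed to at most 0.699 CPM in any library, neutrophil markers to 5.74 to 8.56 CPM and stromal markers to 41.3 to 51.3 CPM. The part of these shifts in the results below was not tested, and in bulk samples fewer cells of a type and less RNA per cell cannot be told apart.

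All 9 members passed the filter on low counts. With DI, 1 of the 9 was called, lower, where 7.70% of all tested genes were called lower and 7.14% higher. The member that fell was Idh2, the mitochondrial isocitrate dehydrogenase that uses NADP. The fitted value was below 0 for 6 members and above 0 for 3, and the median log2 fold change over the 9 was -0.06, against 0.0012 over all tested genes. In 6 of the 9 both libraries of one group lay above both of the other, a pattern seen in 58.6% of all genes tested. The plot of CPM by library shows how close the libraries lay for each gene.

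**Figure D1:**
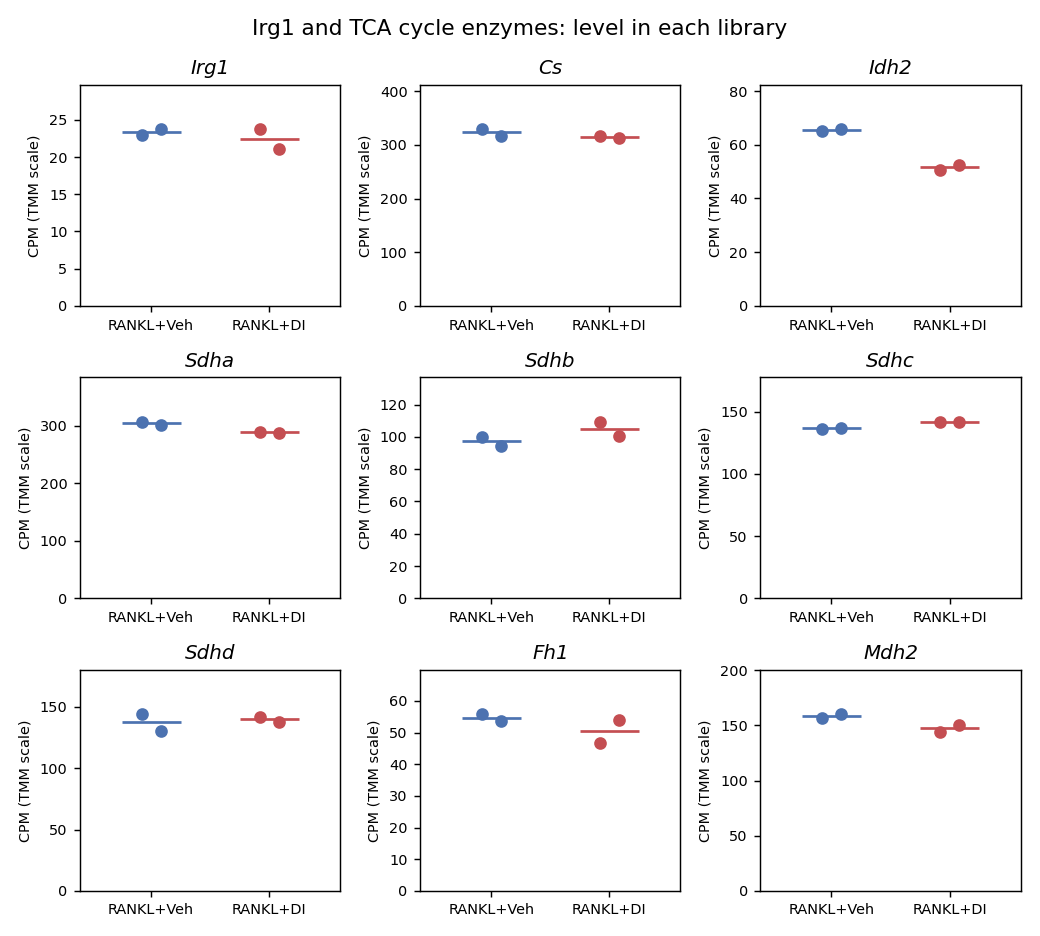
Level of each of the 9 genes in CPM on the TMM scale (vertical axis, from 0) in the 2 libraries of RANKL+Veh (blue) and the 2 of RANKL+DI (red), with a line at the mean of each group. Idh2 stood at 65.0 and 65.8 CPM with vehicle and at 50.7 and 52.6 CPM with DI, while the points of Irg1, Sdhd and Fh1 overlapped between groups.

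Irg1 (ENSMUSG00000022126), the gene of itaconate synthesis, lies on chromosome 14 from 103046977 to 103056573 on the plus strand of GRCm38, with 1 annotated transcript of 5 exons, and its exons overlap no other gene. It had 408 and 396 counts under DI against 428 and 396 under DMSO. These are 23.8 and 21.1 CPM with DI and 23.0 and 23.8 CPM with vehicle. The groups overlapped, with RANKL+DI replicate 2 the lowest of the 4 libraries. The mean was 22.4 ± 1.87 CPM with DI and 23.4 ± 0.564 CPM in RANKL+Veh (SD, n = 2 each). The log2 fold change was -0.06 (SE 0.09, edgeR adjusted p = 0.728). Its 95% interval ran from -0.29 to 0.17, which is a level between 0.818 and 1.13 times that with vehicle. On the TMM scale, a fall or a rise of Irg1 mRNA beyond that range at 24 h lay outside the interval. A smaller one was not detectable with 2 libraries a group. Scaled by library size only, the log2 fold change was -0.16 (SE 0.09). DESeq2's Wald test gave -0.06 with a larger SE of 0.16. The range thus depends on the scaling and on the test. By qPCR, the study reported significantly lower IRG1 with DI under RANKL in BMMs of young and of aged mice, at a time its legend does not give. It reported no significant effect of DI in resting BMMs. In its time course, IRG1 rose to an early peak under RANKL and then returned to basal level. On the TMM scale, the log2 fold change of Irg1 was 0.03 without RANKL+DI replicate 2 and -0.14 without RANKL+DI replicate 1. Its sign thus rested on 1 library, and no alternative called Irg1.

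In the authors' FPKM, Irg1 was the lowest of the 9 genes. Its mean over the 4 libraries was 8.74 FPKM, above 65.9% of all tested genes. Fh1 and Idh2 followed at 11.2 and 11.4 FPKM, then Mdh2 at 29.7, Sdhc at 36.2, Sdhb at 38.7 and Sdha at 54.1 FPKM, with Sdhd at 107.8 and Cs at 112.8 FPKM. In this order Fh1 and Idh2 were within each other's spread with DI, at 9.59 and 11.1 FPKM for Fh1 and 9.44 and 9.84 FPKM for Idh2, but not with vehicle. Sdhc and Sdhb lay close without overlap, at 35.6 to 36.8 FPKM and 37.2 to 40.4 FPKM over the 4 libraries, while Sdhd and Cs overlapped, at 103.4 to 116.1 FPKM and 106.7 to 120.7 FPKM. In the 4 libraries the FPKM of Cs was 12.3 to 13.7 times that of Irg1. The gene lengths behind the FPKM are not stated, though counts, FPKM and library totals together imply them. In RANKL+DI replicate 1, Fh1 and Idh2 had 805 and 870 counts against 408 for Irg1. Their longest coding transcripts have 2636 and 1745 bases against 2623, yet their FPKM were 9.59 and 9.44 against 8.72. The closeness of Fh1 and Idh2 to Irg1 in FPKM thus depends on the lengths used. Mdh2 had more counts than Sdhc in RANKL+DI replicate 1 (2481 against 2438) and a shorter longest coding transcript (1456 against 3171 bases). The FPKM of Mdh2 was nonetheless lower there (26.9 against 35.6). The order in FPKM is therefore not one of mRNA amount per length of the longest coding transcript.

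Other inflammatory genes that macrophages induce along with Irg1 were set beside it, without a test of the difference. Of 10 such genes 6 were tested, 2 fell and none rose, where 7.70% of all tested genes were called lower and 7.14% higher. The median log2 fold change was -0.33. It fell between Nfkbiz at -0.68 and Tnf at 0.01, with no tested gene of the list in that gap, and Zc3h12a and Ptgs2 were also above 0. Cxcl10, a chemokine gene downstream of interferon, had 79 and 99 counts under DI against 359 and 376 under DMSO. Its level went from 19.3 and 22.6 CPM with vehicle to 4.60 and 5.28 CPM with DI, a change of -2.08 in log2 units (SE 0.14, edgeR adjusted p = 9.20e-04). It overlaps Art3 on the opposite strand over 5.91% of its exons, and no source says that strand was used in counting. The ratio of Cxcl10 to Irg1 in FPKM was 0.107 and 0.138 with DI and 0.462 and 0.523 with vehicle, without overlap. Its size depends on the gene lengths behind the FPKM, which are not stated.

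Nfkbiz, whose product IκBζ drives secondary inflammatory genes, fell from 13.7 and 12.5 CPM with vehicle to 8.27 and 8.15 CPM with DI. Its log2 fold change was -0.68 (SE 0.11, edgeR adjusted p = 0.0146), and it lost the call without RANKL+Veh replicate 1 (log2 fold change -0.61, adjusted p = 0.0726). Nos2, the inducible nitric oxide synthase, had only 4 and 5 counts under DI against 21 and 11 under DMSO, and did not pass (adjusted p = 0.0681, edgeR). Nos2 was called lower with edgeR's exact test (adjusted p = 0.0217), when scaled by library size only (0.0484) and with log2(FPKM + 0.01) in limma (0.0435), which makes 3 genes of the list. Tnf had a log2 fold change of 0.01 with an interval of -0.20 to 0.22, and Zc3h12a, an RNase that degrades inflammatory mRNAs, of 0.03 with an interval of -0.22 to 0.28. Ptgs2, which encodes COX2, had 28 and 53 counts under DI against 36 and 32 under DMSO. Il1b had 5 counts and Il6 had 2, all in RANKL+Veh replicate 1, and Il12b and Ifnb1 had none in any library. A count of 0 allows up to 3 counts, 0.160 to 0.180 CPM in these libraries.

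The genes whose 4 values followed those of Irg1 most closely, by the Euclidean distance between centred log2 CPM over the 4 libraries, were Mtf1 (0.014), Ddx54 (0.024), Zscan22 (0.025), Usp16 (0.026) and Get4 (0.026). In all, 476 tested genes lay within 0.1 of Irg1, and none of the 5 was called.

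Idh2 (ENSMUSG00000030541) lies on chromosome 7 from 80094846 to 80115392 on the minus strand, and its longest coding transcript has 11 exons. It had 870 and 986 counts under DI against 1212 and 1097 under DMSO. Both libraries with DI lay below both with vehicle, at 51.6 ± 1.34 CPM against 65.4 ± 0.563 CPM (SD, n = 2 each). The log2 fold change was -0.34 (SE 0.06, edgeR adjusted p = 0.0162), with an interval of -0.49 to -0.20, or 0.789 times the level with vehicle. Its direction was the same under all 15 alternatives. The call was lost without RANKL+DI replicate 1 (adjusted p = 0.0661), without RANKL+Veh replicate 1 (0.0536) and without RANKL+Veh replicate 2 (0.0623), while the log2 fold change stayed between -0.37 and -0.31.

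The mitochondrion holds an NAD-dependent isocitrate dehydrogenase as well, a complex of the products of Idh3a, Idh3b and Idh3g, and Idh1 encodes the NADP-dependent enzyme of the cytosol and peroxisomes. These genes did not move as a block. Idh1 rose from 206.5 and 222.6 CPM with vehicle to 292.8 and 311.9 CPM with DI, a change of 0.50 in log2 units (SE 0.06, edgeR adjusted p = 0.00403), and was called under every alternative. Idh3a, the catalytic subunit, fell from 84.8 and 89.0 CPM to 70.6 and 72.7 CPM, a change of -0.28 in log2 units (SE 0.06, edgeR adjusted p = 0.0267). The call of Idh3a was lost with each library left out in turn (adjusted p between 0.0527 and 0.116) and with edgeR's exact test (0.0738). Idh3b and Idh3g were not called, with log2 fold changes of -0.03 (interval -0.13 to 0.08) and -0.10 (interval -0.26 to 0.07). In FPKM, Idh1 stood at 3.63 and 3.87 times Idh2 with vehicle and at 6.61 and 6.78 times with DI, without overlap between groups. The size of this ratio depends on the gene lengths behind the FPKM, which are not stated. An exact permutation test of 2 libraries against 2 cannot give a p under 0.333, so no test of this ratio was made.

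**Figure D2:**
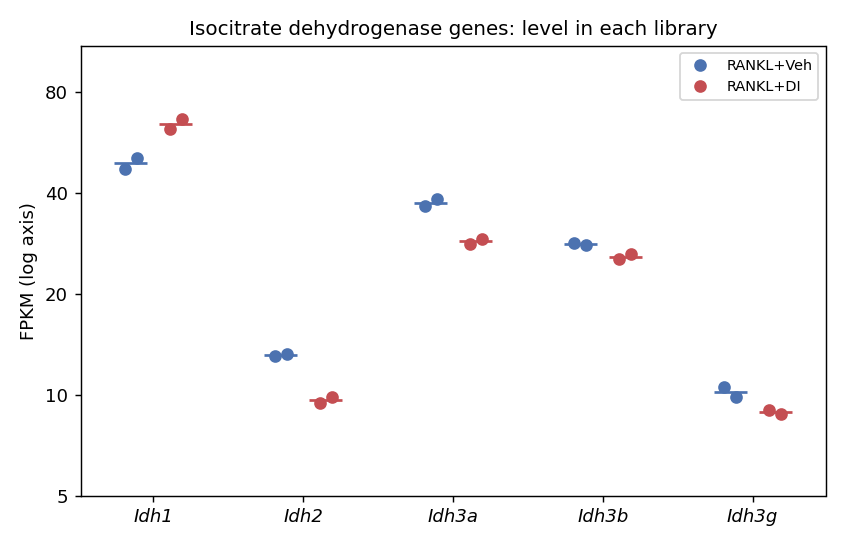
FPKM of the 5 isocitrate dehydrogenase genes (vertical axis, log scale) in the libraries of RANKL+Veh (blue) and RANKL+DI (red), with a line at the mean of each group. Idh1 rose, Idh2 and Idh3a fell, and the FPKM values are not on the TMM scale, and without the TMM factors the median over all tested genes was a log2 fold change of -0.10.

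Succinate dehydrogenase, complex II of the respiratory chain and the enzyme that itaconate inhibits, consists of the flavoprotein Sdha, the iron-sulfur protein Sdhb and the membrane anchors Sdhc and Sdhd. On the TMM scale none of its 4 genes was called by edgeR, and none had an unadjusted p under 0.05, nor did DESeq2 or limma-voom call any. Scaled by library size only, Sdha was called lower (-0.18, edgeR adjusted p = 0.0211). Sdha had 4982 and 5396 counts under DI against 5731 and 5037 under DMSO, that is 290.1 and 287.6 CPM against 307.4 and 302.2 CPM. Its groups did not overlap, but the log2 fold change was only -0.08 (SE 0.04, edgeR adjusted p = 0.222). Sdhb stood at 109.5 and 100.4 CPM with DI and at 100.0 and 94.4 CPM with vehicle, a change of 0.11 in log2 units (SE 0.06, edgeR adjusted p = 0.308). Sdhc was the most even, at 141.9 CPM in both libraries with DI and 136.4 CPM in both with vehicle (log2 fold change 0.06, adjusted p = 0.404, edgeR). Sdhd had 142.2 and 137.6 CPM with DI inside the vehicle values of 144.1 and 130.7 CPM.

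On the TMM scale with edgeR, the intervals of the 4 subunits together spanned -0.17 to 0.26. A change of any subunit by more than 1.20-fold lay outside its interval in that fit. The bound depends on the test and the scaling, as the SE of Sdhb was 0.06 with edgeR and 0.09 with DESeq2's Wald test. The signs of Sdhc and Sdhd depended on the scaling, with log2 fold changes of -0.05 and -0.08 when scaled by library size only. Within a library Sdha stood at 1.26 and 1.36 times Sdhb in FPKM with DI and at 1.46 and 1.52 times with vehicle. Sdhd stood at 2.63 to 2.92 times Sdhb over the 4 libraries. Both ratios depend on the gene lengths behind the FPKM, which are not stated, so they are not ratios of mRNA amount. The 4 genes that encode assembly factors of the complex (Sdhaf1, Sdhaf2, Sdhaf3 and Sdhaf4) had log2 fold changes between -0.11 and 0.21. None of them was called by edgeR, DESeq2 or limma-voom, and none had an unadjusted p under 0.05. Sdhaf1 overlaps E130208F15Rik on the opposite strand over 69.6% of its exons and Sdhaf4 overlaps Gm26524 over 12.7%.

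Cs, whose product starts the cycle and whose activity is widely used as a measure of mitochondrial content, had 5426 and 5854 counts under DI against 6139 and 5289 under DMSO. Its level was 314.0 ± 2.77 CPM with DI and 323.3 ± 8.50 CPM in RANKL+Veh (SD, n = 2 each), a change of -0.04 in log2 units (SE 0.04, edgeR adjusted p = 0.526). Fh1 had 46.9 and 54.1 CPM with DI and 55.8 and 53.6 CPM with vehicle, and the libraries with DI differed more from each other than the group means did. Its log2 fold change was -0.12 (SE 0.09, edgeR adjusted p = 0.422), and -0.02 without RANKL+DI replicate 1. Mdh2 had 144.5 and 150.1 CPM with DI and 157.0 and 160.2 CPM with vehicle, without overlap. The log2 fold change was -0.11 (SE 0.04, edgeR adjusted p = 0.168). When scaled by library size only, Cs, Sdha and Mdh2 were also called lower, with adjusted p-values of 0.0488, 0.0211 and 0.0246 (edgeR), so that 4 members were called, all lower. Under that scaling 19.7% of all tested genes were called, 15.3% lower and 4.35% higher.

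**Figure D3:**
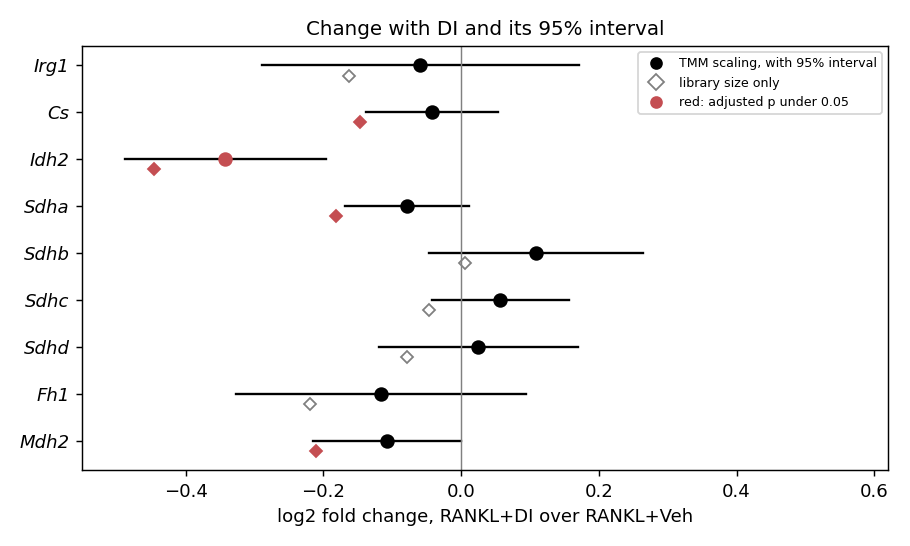
Log2 fold change of the 9 genes, RANKL+DI over RANKL+Veh (horizontal axis), with the 95% interval of edgeR's test on TMM-scaled counts (circles with lines) and the value scaled by library size only (diamonds). Red marks an adjusted p under 0.05, reached on the TMM scale by Idh2 and when scaled by library size only by Cs, Idh2, Sdha and Mdh2.

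Of 13 other genes of TCA cycle enzymes all were tested, 1 rose (Idh1) and 1 fell (Idh3a), with a median log2 fold change of -0.02. Among all tested genes 14.8% were called, so this count is near the share over all genes. Suclg2, a subunit of succinyl-CoA synthetase, had a log2 fold change of -0.40 that did not pass (adjusted p = 0.248, edgeR) and rested on its libraries with DI, at 25.3 and 16.7 CPM. Without RANKL+DI replicate 1 it was at -0.73 (adjusted p = 0.0240) and without RANKL+DI replicate 2 at -0.13. Dlst, of the oxoglutarate dehydrogenase complex, was at -0.09. Suclg2 has a near-identical copy (Gm15163 over 38.7% of the transcript), so its counts are less certain.

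Genes of pyruvate entry were also among those called. Pcx, pyruvate carboxylase, which makes oxaloacetate, rose from 14.4 and 14.9 CPM with vehicle to 21.5 and 23.1 CPM with DI, a change of 0.61 in log2 units (SE 0.09, edgeR adjusted p = 0.0106), and was called under every alternative. Pdp1, the phosphatase that activates pyruvate dehydrogenase, rose from 45.7 and 48.7 CPM to 62.1 and 61.0 CPM, a change of 0.38 in log2 units (SE 0.06, edgeR adjusted p = 0.0147). Pdp1 was not called without RANKL+Veh replicate 1 (adjusted p = 0.0590) or on the FPKM scales (0.0558 and 0.0622). Of the dehydrogenase itself, Pdhb at -0.17 (adjusted p = 0.0893) and Pdha1 at -0.12 (adjusted p = 0.126, both edgeR) were not called. Pdhb is near-identical to Gm6123 over 71.2% of its transcript, and Pdha1 shares 21.3% with the overlapping gene Map3k15. Of 11 genes in this list 10 were tested, 2 rose and none fell, with a median of -0.02. Among all tested genes 7.14% were called higher and 7.70% lower. Pdk4 had 1 to 5 counts and was not tested.

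Of 5 genes for the breakdown of itaconate and the neighbouring propionate route, 4 were tested and 1 rose, where 7.14% of all tested genes were called higher. Mcee, methylmalonyl-CoA epimerase, went from 17.3 and 19.3 CPM with vehicle to 26.7 and 26.2 CPM with DI, a change of 0.54 in log2 units (SE 0.09, edgeR adjusted p = 0.0152). Without RANKL+Veh replicate 1 it was at 0.46 and not called (adjusted p = 0.0572). Mut, the mutase that acts after it, was at -0.01 with an interval of -0.17 to 0.15. Clybl, the lyase that cleaves citramalyl-CoA derived from itaconate, had 197 and 218 counts under DI against 235 and 180 under DMSO, a log2 fold change of -0.02 with an interval of -0.32 to 0.28. Auh was at 0.15, and Sugct, a CoA transferase that can activate itaconate, had 0 to 6 counts and was not tested.

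Of 6 carrier genes 5 were tested and, with the filter on low counts and all libraries, none was called by edgeR, DESeq2 or limma-voom, although 1 had an unadjusted p under 0.05. That was Mpc1, of the mitochondrial pyruvate carrier, with a log2 fold change of 0.93 (adjusted p = 0.150, edgeR). It stood at 22.5 CPM in RANKL+DI replicate 1 and at 10.3 CPM in replicate 2, against 7.78 and 9.36 CPM with vehicle. Without RANKL+DI replicate 1 the log2 fold change of Mpc1 was 0.27, and without replicate 2 it was 1.40 (adjusted p = 0.00212). It was also called without the filter on low counts (adjusted p = 0.0452, edgeR). Part of the Mpc1 transcript (27.2%) is identical to the pseudogene Mpc1-ps, and 25.2% is near-identical to Gm8219. Mpc1 also overlaps 4930506C21Rik on the opposite strand over 23.1% of its exons, so its counts are less certain. Slc25a1, the citrate carrier, was at 0.19, Slc25a10, the dicarboxylate carrier, at -0.13 and Mpc2 at 0.13, and Slc25a21 had no count.

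All 13 mRNAs of the mitochondrial genome were tested, and on the TMM scale with the filter on low counts none was called by edgeR, nor by DESeq2 or limma-voom. With edgeR, 4 (mt-Nd1, mt-Nd2, mt-Nd4 and mt-Nd4l) were called lower when scaled by library size only. Without the filter, 2 others (mt-Co1 and mt-Co2) were called higher. Which genes were called thus depended on the setting, while the 4 lower ones stayed below 0 in every setting. Their median log2 fold change was -0.02, and their summed level was 28561 and 29290 CPM with DI and 27580 and 28895 CPM with vehicle. At an unadjusted p under 0.05, 3 of them passed, with mt-Co2 at 0.10, mt-Nd2 at -0.12 and mt-Co1 at 0.10. Many of these mRNAs have near-identical copies in the nuclear genome, so their counts are less certain. The copy of mt-Co2 in the gene models, Gm28661, had 33304 counts on average over the 4 libraries. Of 8 regulators of mitochondrial biogenesis 7 were tested and on the TMM scale none was called by edgeR with all libraries, nor by DESeq2 or limma-voom, while 2 (Ppargc1b and Tfam) had an unadjusted p under 0.05. Scaled by library size only, 2 (Tfam and Gabpa) were called lower. The lowest p was that of Ppargc1b, a coactivator that osteoclasts use for mitochondrial growth, at -0.42 (adjusted p = 0.116, edgeR). Tfam, the packaging factor of mitochondrial DNA, was at -0.26 and Gabpa at -0.19. Pprc1 was at -0.50, with 54.3 CPM in RANKL+DI replicate 1 and 28.2 CPM in replicate 2, and without the former it was called at -1.04 (edgeR adjusted p = 8.75e-04).

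**Figure D4:**
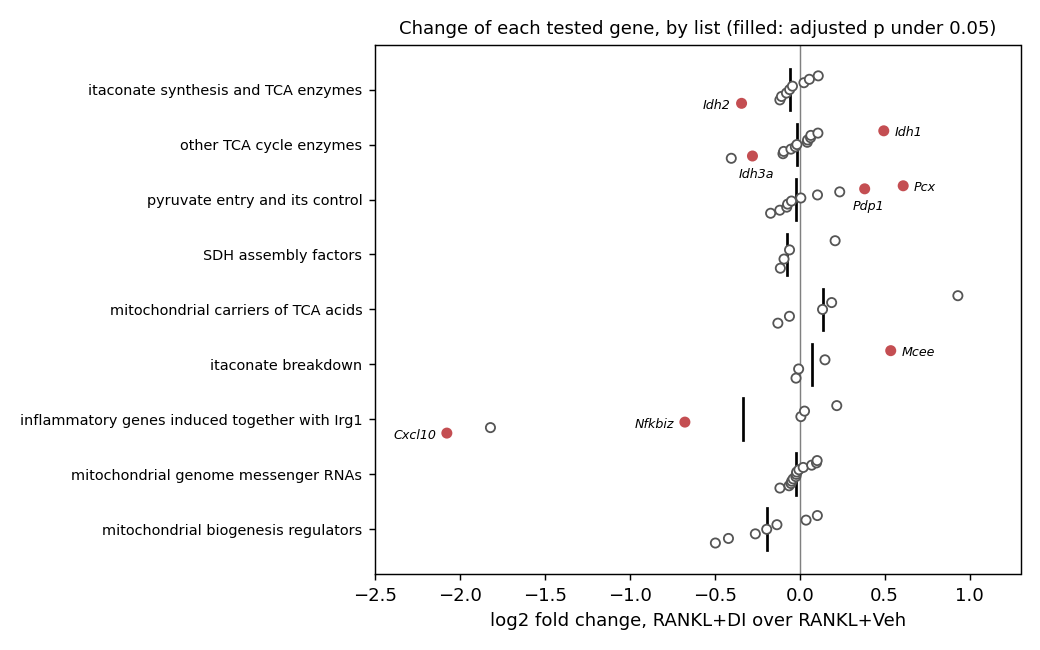
Log2 fold change of every tested gene, RANKL+DI over RANKL+Veh (horizontal axis), in the 9 genes and in 8 related lists, with a black line at the median of each list and filled red points for an adjusted p under 0.05. The called genes are Idh2, Idh3a, Cxcl10 and Nfkbiz below 0 and Idh1, Pdp1, Pcx and Mcee above 0.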

How the data were processed

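Messenger RNA libraries of BMMs were analysed from a table of 34745 genes, which holds unnormalized read counts as the authors deposited them. Beside them stand FPKM values that the authors deposited, scaled by gene length and library total. The length used for each gene is not given in the sources used here. A second table repeats these values with pathway terms and was not used. The submitters' processing notes name the build GRCm38 (mm10). The aligner and counting program are not given in the sources used here. The counts were tested with edgeR 4.0.16 under R 4.3.3 (TMM factors, default filter, quasi-likelihood test, Benjamini-Hochberg adjustment over 12590 genes). Standard errors are the log2 fold change over the root of F, and intervals are 95%. DESeq2 1.42.0 and limma 3.58.1 served as alternatives, together with other scalings, filters, pseudocounts, the replicate block and each library left out. The edgeR test was tested on simulated data. Within each group the libraries differed beyond sampling noise (chi-square per degree of freedom 7.98 and 8.14). Gene models were compared with GENCODE M21 and copies searched with BLAST+ 2.17.0 (95% identity over 20% of the transcript). Of 79 genes looked up, 58 matched a RefSeq promoter. Intervals cover counting error and the spread between these libraries only, and floors cover counting error only. The members and gene lists were chosen with earlier results of these data known. Named genes are the 9 members, in each list the called genes or the 4 with the smallest p, and the 5 genes nearest to Irg1. Idh3b, Idh3g, Tnf, Zc3h12a and the genes of a list at or near 0 counts were named after their values were seen. Other samples, proteins and metabolites were not analysed here. A gene of the lists is not reported here by name.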

Additional observations from a re-analysis of the deposited data

How the results depend on the processing

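Results were recomputed under 15 alternatives, 4 of which leave out a library, so that 1 group then holds 1 library that is assumed to vary like the other group. Of the values of the 9 members, 116 kept their direction and their side of the threshold, 8 changed direction, 8 gained a call and 3 lost it. When scaled by library size only, Cs was at -0.15, Sdha at -0.18 and Mdh2 at -0.21 and all were called (log2 fold changes), and Sdhc was at -0.046 and Sdhd at -0.078. With log2(FPKM + 1) the values were -0.14 for Cs, -0.18 for Sdha and -0.20 for Mdh2, all called, with Sdhc at -0.045 and Sdhd at -0.076. With log2(FPKM + 0.01), Sdha at -0.18 and Mdh2 at -0.21 were called, and Sdhc was at -0.046 and Sdhd at -0.076. These scalings lack the TMM factors. Members called were then 4, 4 and 3. With a library left out, log2 fold changes ran from -0.14 to 0.027 for Irg1 (above 0 without RANKL+DI replicate 2), from -0.37 to -0.31 for Idh2 and from -0.042 to 0.10 for Sdhd (below 0 without RANKL+Veh replicate 2), members called from 0 to 1, and genes called from 1087 to 1394. Called genes then numbered from 1 to 2 among other TCA enzymes, pyruvate entry and inflammatory genes, and from 0 to 1 among carriers, itaconate breakdown, mitochondrial mRNAs and biogenesis regulators. Elsewhere, called genes were 1 of the other TCA enzymes with the exact test, 4 of pyruvate entry with library size only, 1 carrier without a filter, 3 inflammatory genes with the exact test, library size only and log2(FPKM + 0.01), and, of the mitochondrial mRNAs, 4 with library size only, 2 without a filter, 3 with log2(FPKM + 1) and 4 with log2(FPKM + 0.01). Biogenesis regulators called were 2 with library size only and 1 with log2(FPKM + 1). The cause of these changes was not tested.

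The replicate numbers are shared by the groups, but same-numbered libraries did not deviate together (correlation -0.030 across genes), so they were not treated as pairs. With the replicate number as a block, 1389 genes were called in place of 1868, Idh2 stayed called at -0.34 (adjusted p = 0.0382) and Irg1 was at -0.06. Depth limits the reading of Nos2, Il1b, Il6, Pdk4 and Sugct, whose counts were few.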
